A study of Mus musculus with 768 samples.

Results

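The 44 genes described here encode axon guidance receptors, guidance ligands and axonal adhesion molecules. They were taken by symbol from a table of 27723 genes, and each of the 44 has a row (listed in capitals there, as ROBO2, NRP1, EPHA7, EFNA5 and NCAM1). The rule itself uses no measured value, but the members were chosen with earlier results of these data known. They comprise 23 receptors in 6 families (Robo2; Dcc and the Unc5 genes; the neuropilins; the plexins; the EphA genes; the EphB genes), 16 ligands (Slits, netrin-1, semaphorins, ephrins) and 5 adhesion molecules. RNA was measured by full-length SMART-Seq2 sequencing in single mouse cells from embryoid bodies, which are floating aggregates of embryonic stem cells. All cells carried the Ainv15(iNgn2.Isl1.Lhx3.V5) cassette, in which doxycycline switches on Ngn2 (Neurog2), Isl1 and Lhx3, a combination used to programme stem cells into motor neurons. The bodies were formed 2 days before induction. The 0 h cells are uninduced cells of that line, and the others were taken 6, 12, 18, 24, 30, 36 and 48 h after doxycycline was added at 3 µg/ml. A fluorescent viability dye was used to sort 96 live cells per time point. The culture still held stem cell and neuronal transcripts side by side, as the marker sums given below show.

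A growing axon steers by receptors on its tip. Slit proteins repel axons that carry Robo receptors. Netrin attracts through Dcc and repels through Unc5 receptors, while secreted semaphorins bind neuropilins that signal through plexins. Ephrins, which are tethered to the membrane of neighbouring cells, bind Eph receptors, and in spinal motor neurons EphA4 and neuropilin-1 are known for directing axons into the limb. Neural cell adhesion molecule (Ncam1), contactins and neurofascin hold axons to each other and to their surroundings.

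Promoter windows from RefSeq (GRCm38.p6), each the 250 bases before an annotated start, are shown for 3 members with higher means at later time points, since the induced factors bind DNA at short motifs. Capitals mark any CANNTG motif, the E-box core that proneural factors such as Neurog2 recognise.
Robo2, chr16:74411826-74412075, minus strand: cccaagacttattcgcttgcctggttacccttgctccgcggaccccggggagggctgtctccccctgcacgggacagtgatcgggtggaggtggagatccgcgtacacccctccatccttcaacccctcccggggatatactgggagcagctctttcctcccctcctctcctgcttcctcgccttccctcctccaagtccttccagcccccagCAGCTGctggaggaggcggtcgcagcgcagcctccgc
Efna5, chr17:62881318-62881567, minus strand: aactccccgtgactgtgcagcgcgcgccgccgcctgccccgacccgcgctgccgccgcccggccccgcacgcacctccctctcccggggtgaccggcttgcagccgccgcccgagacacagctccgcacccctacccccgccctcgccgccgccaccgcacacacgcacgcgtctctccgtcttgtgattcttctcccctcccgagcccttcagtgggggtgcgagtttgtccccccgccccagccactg
Epha7, chr4:28812881-28813130, plus strand: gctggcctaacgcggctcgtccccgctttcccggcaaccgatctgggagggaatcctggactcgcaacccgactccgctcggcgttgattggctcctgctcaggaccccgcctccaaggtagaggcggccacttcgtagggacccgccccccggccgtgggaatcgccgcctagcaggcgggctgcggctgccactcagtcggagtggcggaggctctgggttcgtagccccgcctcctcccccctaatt
RefSeq has 3 windows for Robo2, 2 for Epha7 and 1 for Efna5, and the 1 printed ends next to the gene's GENCODE start. The printed Robo2 window held 1 CANNTG motif (CAGCTG), and the printed Efna5 and Epha7 windows held 0. Of 32851 windows in the RefSeq table, 66.2% held CANNTG on either strand, against 18 of the 46 windows of members (39.1%), which belonged to 34 of the 44 genes. CAGATG or its reverse complement CATCTG, which are forms of CANNTG, lay in 14.4% of all windows and in 3 member windows (6.52%). TAATTA, a core recognised by many homeodomain factors, lay in 4.84% of all windows and in 2 member windows (4.35%). A match describes these letters in this window and is not a binding site.

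Each time point is 1 sample of cells, as the labels name no separate cultures, so differences are described by size and no test was made. Values are TPM (transcript abundance corrected for length and scaled to a total of 1000000 per cell), and every SD is between cells. Only cells with at least 2000 genes above 0 were used: 53, 56, 55 and 57 cells at 6, 18, 24 and 30 h, and 37, 52, 44 and 14 cells at 0, 12, 36 and 48 h. The median number of genes per kept cell was 6481 to 7484 at 6 to 30 h, but 5304, 4268.5, 2894 and 2141 at 0, 12, 36 and 48 h. Time points were compared only within these sets, because mean Sod1 lay between 518 and 807 TPM in the first and between 19553 and 65262 TPM in the second. The labels mention 2 library batches without naming their cells, so batch and time cannot be told apart. Lhx3 was above 0 in 2.70, 53.8, 34.1 and 21.4% of cells at 0, 12, 36 and 48 h, and its reads do not tell the cassette from the endogenous gene. At the same times Isl1 was above 0 in 5.41, 38.5, 45.5 and 14.3%, and Neurog2 in 0, 17.3, 15.9 and 0%.

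The members' transcripts together were more abundant at later time points in both sets. Their summed level had a mean of 149 ± 143, 323 ± 218, 448 ± 294 and 525 ± 390 TPM at 6, 18, 24 and 30 h (SD, n = 53, 56, 55 and 57 cells). In the other set it was 325 ± 194, 1207 ± 1737, 2228 ± 1592 and 2665 ± 2151 TPM at 0, 12, 36 and 48 h (n = 37, 52, 44 and 14 cells). The median cell held 14 members above 0 at 6 h and 17 at 30 h, against 11 at 0 h and 9 at 48 h. Member RNA was thus spread over fewer detected members at 48 h, where cells also had the fewest genes. Summed pan-neuronal genes were likewise higher (297 TPM at 6 h and 775 at 30 h; 135 at 0 h and 3935 at 48 h). Summed core pluripotency genes were lower (2760 and 947 TPM; 5606 and 259 TPM). Endothelial cells also use ephrins, Eph receptors and neuropilins. The summed mean of 10 endothelial markers was 2.43 to 24.4 TPM from 0 to 36 h, at 48 h all 10 were at 0, and 0 of 10 passed the filter described next in any comparison. At least 1 was above 0 in 31.6 to 45.3% of cells from 6 to 30 h and in 64.9, 34.6 and 25.0% at 0, 12 and 36 h. The cell with most of them had 6, at 24 h, and the highest sum at that time was 367 TPM. Cdh5 was at 0 in every kept cell except at 24 h. Markers of other types also differed with time. Simple epithelial markers summed to 356 TPM at 6 h and 1049 at 30 h, where 5 of 8 passed. Of these, Krt8 and Krt18 were at least 2-fold higher. Only these 2 lay above 0, and the median log2 fold change of the 5 was -0.28 (lowest -0.94, Epcam). The sums were 303 TPM at 0 h and 621 at 12 h, where Krt8 and Krt18 had log2 fold changes of 5.47 and 5.05. Of the 4 passing at 12 h versus 0 h, 1 was at least 2-fold lower (-1.26). By 36 h 2 of 4 were higher and 2 lower than at 0 h. Mesenchymal and neural crest markers summed to 59.5, 262, 177 and 147 TPM at 0, 12, 36 and 48 h. Most of each sum was Col1a2 (51.3, 247, 152 and 130 TPM), and Sox10 and Lum were at 0 at each of these times. Neural progenitor genes summed to 166 TPM at 6 h and 475 at 30 h. Primitive streak and mesoderm markers summed to 1.43 TPM at 6 h and 52.2 at 30 h, nearly all of the latter the mesodermal gene T (49.3 TPM). Their part in the results was not tested. In these summed values fewer cells of a type and less RNA per cell cannot be told apart.

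A fold change below is log2 of the ratio of (mean TPM + 1), which understates the difference for low genes. A gene passed the filter if its mean reached 10 TPM at the higher time point with at least 25% of its cells above 0. At 30 h versus 6 h 9 of the 44 members passed, 8 were at least 2-fold higher and 0 lower. Across all 6317 genes passing, 13.9% were at least 2-fold higher and 6.03% lower. After rescaling so that the median gene did not differ these shares were 9.42% and 8.11%. Of the 9 members only Ncam1 had a mean of 10 TPM or more at 6 h, so the other 8 passed only through the time point where they were higher, and the count is a description of them. The median log2 fold change over all 44 members without a filter was 0.86, with 36 above and 8 below 0. Over all genes without a filter it was 0, with 11239 above and 7509 below 0 and the rest at 0 TPM at both time points. Over the 18748 genes above 0 TPM at either time point it was 0.13. Against 6 h, 9 of 9 passing members were at least 2-fold higher at 24 h (13.5% of all genes, with 6.28% lower) and 6 of 8 at 18 h (11.8% and 7.36%), with 0 lower at either; these comparisons share the 6 h cells. When all 96 cells of each time point were used, 3 members were at least 2-fold higher and 1 was lower, beside 18.3% and 17.1% of all genes passing. At a pseudocount of 10 TPM 5 members were higher and 0 lower, beside 4.94% and 3.44%.

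In the second set the counts were as follows. At 12 h versus 0 h 13 members passed, of which 5 were at least 2-fold higher and 2 lower (Unc5b and Ephb2), beside 17% and 13% of 5848 genes. At 36 h 9 of 14 were higher and 2 lower (Unc5b and Sema4d), beside 22.5% and 28.5%. At 48 h 9 of 13 were higher and 1 lower (Unc5b), beside 22.8% and 43.4%, or 32.2% and 34.7% after rescaling. The median gene was lower by 0.62 on the log2 scale at 48 h. Efna5, Ncam1, Nrp1 and Robo2 were at least 2-fold higher both at 30 h versus 6 h and at 12 h versus 0 h, comparisons that share no cells. They were 4 of the 8 members that passed in both (50%), whereas 175 of 4394 genes (3.98%) were. The 8 had passed the same filter, so this count too is a description.

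**Figure D1:**
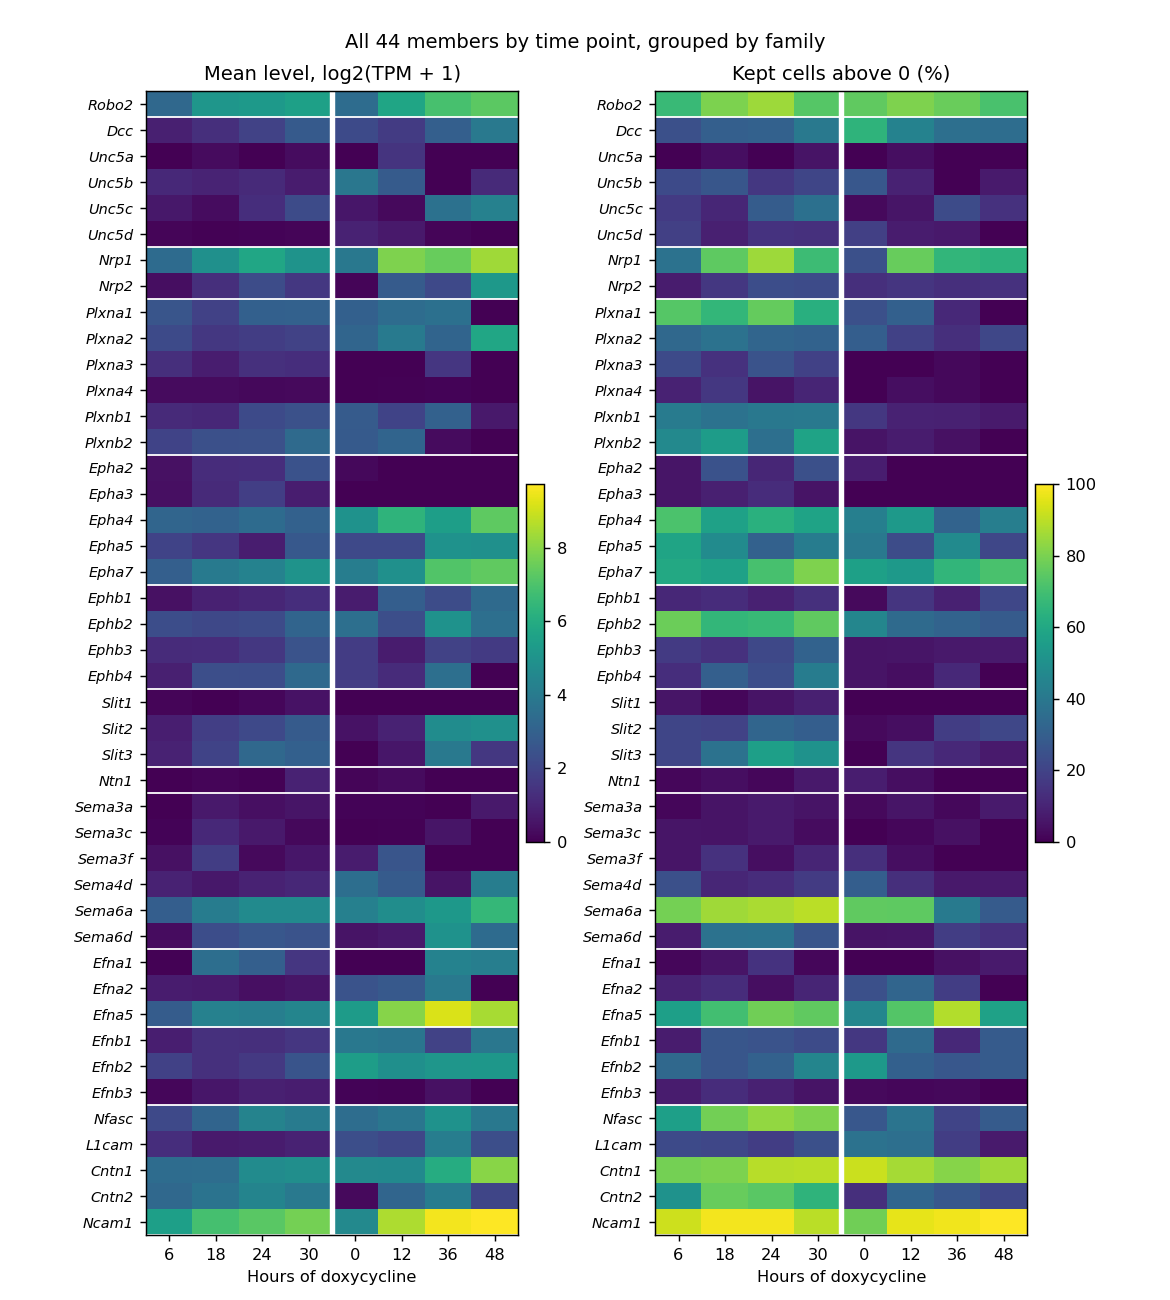
Mean level as log2(TPM + 1) (left) and percent of kept cells above 0 (right) for each of the 44 members, in rows by family, at each time point in hours of doxycycline. Vertical white lines part the sets 6, 18, 24, 30 h and 0, 12, 36, 48 h, and horizontal ones part the families. Ncam1 is the brightest row at 30 h with 207 TPM, while Unc5a and Ntn1 are dark throughout.

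Robo2 is the only Robo gene among the members (73891839 to 74411825 on the minus strand of chromosome 16, GRCm38, a gene of 28 exons in its longest coding transcript), and it encodes a Slit receptor. Its level in single cells ran from 0 to 59.0 TPM at 6 h (median 2.35, mean 8.82 ± 15.1), from 0 to 182 at 18 h (13.4, 33.3 ± 45.1), from 0 to 304 at 24 h (18.9, 36.1 ± 56.1) and from 0 to 270 at 30 h (13.7, 45.7 ± 65.0). Cells with no Robo2 were present at each time, so the ranges overlapped, and the upper ends at 18, 24 and 30 h lay above 6 h. In the other set the mean was 9.72 ± 18.2 TPM at 0 h (median 5.45, highest 104), 51.6 ± 116 at 12 h (17.5, 780), 118 ± 243 at 36 h (22.6, 1144) and 154 ± 207 at 48 h (63.4, 681). The log2 fold change was 2.25 at 30 h versus 6 h, 2.29 at 12 h and 3.85 at 48 h versus 0 h. Over all 96 cells it was 0.82, 1.40 and 2.34.

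Robo2 was already widespread at 6 and 0 h, and its level in positive cells was higher later. Robo2 was above 0 in 67.9% of cells at 6 h (exact 95% interval 53.7 to 80.1%, which like all intervals here covers counting error only) and in 73.7% at 30 h (60.3 to 84.5%). At 18 and 24 h the shares were 80.4 and 85.5%. In the other set they were 75.7, 80.8, 77.3 and 71.4% (0, 12, 36 and 48 h). Among positive cells the median level was 6.25 TPM at 6 h and 33.1 at 30 h, and 8.03 at 0 h and 135 at 48 h. Uninduced and early cells thus already held Robo2 transcripts at a low level.

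**Figure D2:**
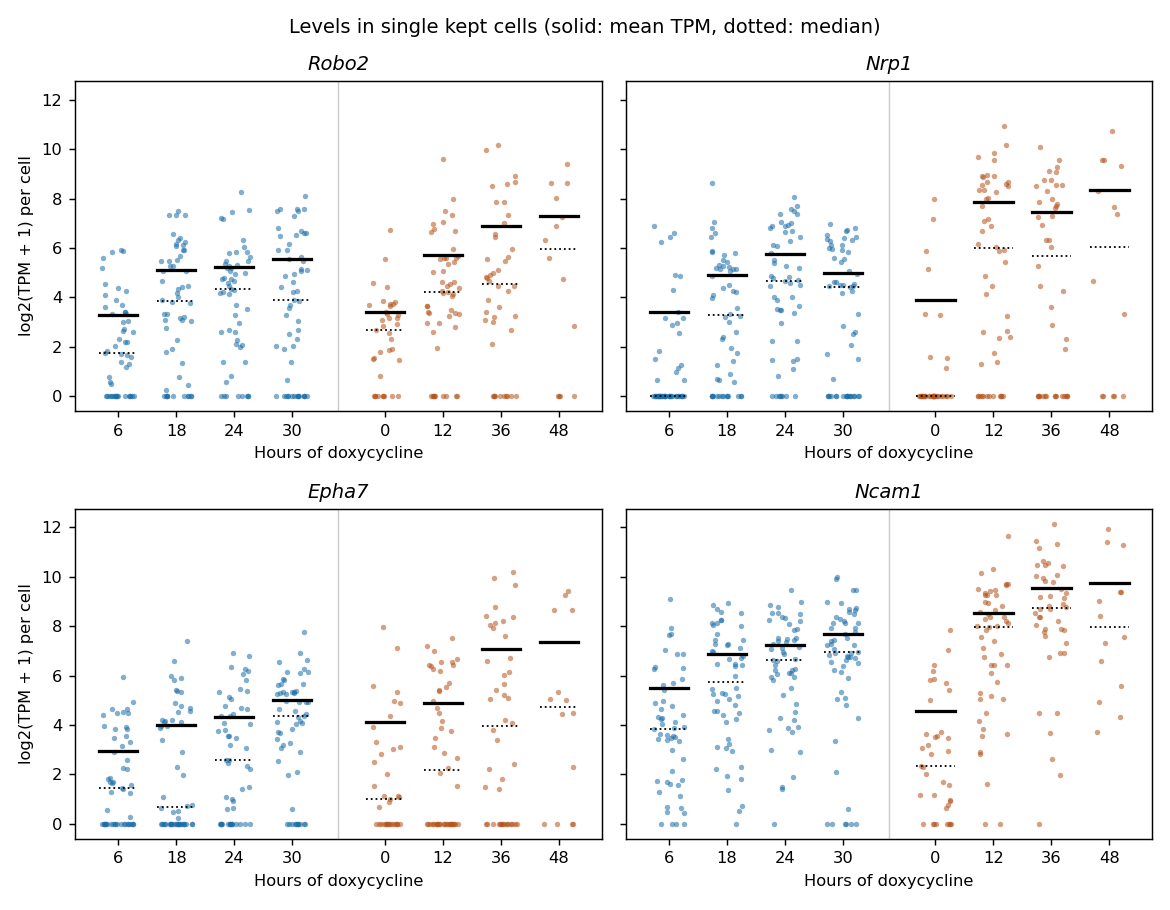
Level in each kept cell as log2(TPM + 1) (points) for Robo2, Nrp1, Epha7 and Ncam1 at each time point in hours of doxycycline, with the mean TPM (solid bar) and median (dotted bar) drawn on the same scale. The grey line parts the sets. Robo2 at 6 h has many positive cells at low levels, while the Nrp1 median is 0 at 6 and 0 h.

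Dcc and the 4 Unc5 genes, receptors for netrin, had the lowest summed level of the 6 receptor families from 6 to 30 h, and 0 of 5 passed at 30 h versus 6 h. Their summed mean was 2.64 ± 4.07, 2.98 ± 6.99, 5.53 ± 9.98 and 10.5 ± 15.7 TPM at 6, 18, 24 and 30 h. This corresponds to a log2 fold change of 1.65 at 30 h, or 0.92 over all 96 cells. Dcc itself, the attractive receptor, had a mean of 0.831 TPM at 6 h and 5.72 at 30 h, and was above 0 in 24.5% and 40.4% of cells. At 0 h Dcc was above 0 in 64.9% of cells and at 48 h in 35.7%, at means of 3.53 and 14.2 TPM.

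Within this family the leading member differed between early and late cells. Unc5b, a repulsive receptor also used in blood vessels, made up 73.3% of the family's summed TPM at 0 h. Its mean was 13.6 ± 33.6 TPM at 0 h (median 0, highest 154), 5.86 ± 32.7 at 12 h, where 1 cell held 74.1% of the sum, 0 in all 44 cells at 36 h (upper limit of the share 6.82%) and 1.23 ± 4.61 at 48 h, in 1 cell. Its log2 fold change was -1.09 at 12 h and -2.71 at 48 h versus 0 h, while from 6 to 30 h its mean stayed between 0.691 and 1.24 TPM. Unc5c, another repulsive receptor, led at 36 and 48 h with 11.5 and 18.6 TPM, but in 10 of 44 and 2 of 14 cells. Without its highest cell its mean was 5.20 TPM at 36 h and 0.525 at 48 h, where 1 cell held 97.4% of the sum and Dcc without its own highest cell had 7.65 TPM. Unc5a was at 0 at 6, 24, 0, 36 and 48 h, and Unc5d had at most 0.923 TPM.

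Neuropilin-1 (Nrp1, chromosome 8, 128358604 to 128503363, plus strand), the semaphorin 3A co-receptor, was higher later both in share of cells and in level. Its mean was 9.49 ± 25.4 TPM at 6 h (median 0, highest 116), 28.7 ± 57.6 at 18 h (8.72, 391), 52.9 ± 64.4 at 24 h (24.6, 263) and 30.8 ± 36.0 at 30 h (20.4, 123). The 24 h mean was the highest of this set, and at each time some cells were at 0. In the other set the mean was 13.8 ± 47.9 TPM at 0 h (median 0, highest 255), 232 ± 364 at 12 h (62.1, 1969), 175 ± 246 at 36 h (51.2, 1094) and 327 ± 494 at 48 h (95.5, 1725). Its log2 fold change was 1.60 at 30 h versus 6 h (0.22 over all 96 cells), 3.97 at 12 h and 4.47 at 48 h versus 0 h.

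Cells with Nrp1 made up 37.7% at 6 h (24.8 to 52.1%) and 68.4% at 30 h (54.8 to 80.1%). Between them the shares were 75.0 and 85.5% (18 and 24 h; 61.6 to 85.6% and 73.3 to 93.5%). At 0 h it was above 0 in 24.3% (11.8 to 41.2%) and at 12 h in 76.9% (63.2 to 87.5%), although the 12 h cells had fewer genes. Nrp2, its paralog, was at 0.108 to 5.85 TPM outside 48 h. At 48 h it had 35.8 TPM from 2 of 14 cells, so Nrp1 made up at least 90.1% of the family's sum at each time point.

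Plexins, the signalling partners of neuropilins and direct receptors of other semaphorins, were already widespread at 6 h. At least 1 of the 6 was above 0 in 90.6% of cells at 6 h and in 86.0% at 30 h, with summed means of 14.3 ± 14.1 and 25.0 ± 28.6 TPM. Plxna1 was the most widely detected at 6 h, in 73.6% of cells. Plxnb2 had the largest mean at 30 h, 9.33 TPM. The share with a plexin was 56.8% at 0 h and 28.6% at 48 h, and 98.9% of the 48 h sum of 54.0 TPM was Plxna2, in 3 of 14 cells. No plexin passed in the comparisons of 30 h versus 6 h and 12 h versus 0 h. A neuropilin and a plexin were above 0 in the same cell in 37.7% of cells at 6 h (24.8 to 52.1%), 71.4% at 18 h, 85.5% at 24 h and 66.7% at 30 h (52.9 to 78.6%). A neuropilin with or without a plexin was in 39.6% at 6 h and 73.7% at 30 h. In the other set the joint shares were 10.8, 51.9, 27.3 and 21.4% at 0, 12, 36 and 48 h. For this pair and those below, whether they shared cells more often than their separate shares give was not tested.

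Among EphA receptors, which bind mainly ephrin-A ligands, the leading gene was Epha4 at 6, 0 and 12 h and Epha7 at the other time points. Epha7 (chromosome 4, 28813131 to 28967499, plus strand) had a mean of 6.70 ± 11.0 TPM at 6 h (median 1.73, highest 59.7), 15.0 ± 28.8 at 18 h (0.61, 169), 18.9 ± 28.4 at 24 h (5.04, 121) and 30.8 ± 37.4 at 30 h (19.8, 217). The 6 and 30 h ranges overlapped, and the median cell at 30 h lay above the mean at 6 h. At 0, 12, 36 and 48 h the means were 16.5 ± 46.1, 28.4 ± 44.0, 135 ± 264 and 161 ± 250 TPM (medians 1.01, 3.47, 14.5 and 26.3; highest 248, 181, 1186 and 684). The log2 fold change was 2.05 at 30 h versus 6 h, 0.75 at 12 h and 3.21 at 48 h versus 0 h. Epha7 was above 0 in 60.4% of cells at 6 h and 80.7% at 30 h (intervals 46.0 to 73.5% and 68.1 to 90.0%).

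Epha4, which guides limb motor axons, did not follow Epha7 between 6 and 30 h. Its mean was 8.03 ± 12.6, 7.45 ± 12.5, 9.70 ± 18.5 and 7.08 ± 20.1 TPM at 6, 18, 24 and 30 h (medians 2.74, 0.505, 1.09 and 0.62; highest 69.0, 50.9, 113 and 125). In the other set it was 30.0 ± 48.1, 79.6 ± 177, 42.5 ± 105 and 157 ± 272 TPM (medians 0, 2.98, 0 and 0; highest 159, 1088, 443 and 757). The log2 fold change was -0.16 at 30 h versus 6 h and 1.38 at 12 h and 2.35 at 48 h versus 0 h. Epha5 had at most 5.40 TPM from 6 to 30 h and 28.8 to 30.0 TPM at 36 and 48 h, with 21 of 44 positive cells at 36 h. Epha2 and Epha3 did not exceed 4.49 TPM and were at 0 at 12, 36 and 48 h. The summed EphA level had a mean of 18.3, 48.5, 50.0 and 347 TPM at 6, 30, 0 and 48 h, with 75.0 to 93.0% of cells above 0 at every time point.

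EphB receptors, which bind ephrin-B ligands, were lower. Their summed mean was 6.29 ± 6.97, 9.50 ± 12.6, 10.6 ± 16.3 and 22.9 ± 27.4 TPM at 6, 18, 24 and 30 h. Ephb2 made up 61.4% of it at 6 h and Ephb4, known from the venous endothelium, was first at 30 h with 9.02 TPM (39.4%). Ephb4 was above 0 in 13.2% and 42.1% of cells at 6 and 30 h, and endothelial markers together summed to 3.54 and 2.43 TPM there. Whether Ephb4 lay in cells with endothelial markers was not tested.

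Ephb2 had means of 3.86 ± 4.70, 3.29 ± 5.92, 3.63 ± 4.53 and 7.83 ± 11.8 TPM at 6, 18, 24 and 30 h (medians 2.73, 1.46, 1.62 and 5.25; highest 26.9, 40.4, 17.7 and 66.0). Those of the other set were 10.9 ± 54.5, 4.12 ± 22.9, 30.1 ± 135 and 10.7 ± 23.4 TPM (medians all 0; highest 333, 166, 865 and 82.0). Its difference at 12 h versus 0 h, a log2 fold change of -1.21, rested on 1 cell that held 82.7% of the 0 h sum and became -0.59 when the highest cell of each time point was left out. Ephb1 and Ephb3 had at most 9.35 TPM.

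Between 6 and 30 h the receptor families other than neuropilins differed more in level than in the share of cells above 0. At 6 h the median cell had 4 of the 6 families above 0 and at 18, 24 and 30 h it had 5. All 6 were present in 20.8% of cells at 6 h (10.8 to 34.1%), 41.1% at 18 h (28.1 to 55.0%), 36.4% at 24 h and 40.4% at 30 h (27.6 to 54.2%). The neuropilins differed most in share between 6 and 30 h, by 34.1 percentage points, whereas the other 5 families differed by -4.60 to 6.02 points. With detection set at 10 TPM or more, the shares at 6 and 30 h were 22.6 and 56.1% for Robo2, 5.66 and 29.8% for Dcc and Unc5, 13.2 and 56.1% for neuropilins, 30.2 and 52.6% for plexins, 45.3 and 71.9% for EphA and 11.3 and 57.9% for EphB. At this threshold each of the 6 families was thus in a larger share of cells at 30 h.

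Over 0, 12, 36 and 48 h all 6 families were above 0 in 1 of 37, 9 of 52, 1 of 44 and 0 of 14 cells, the last of which allows up to 21.4%. The share with at least 1 neuropilin was 29.7% at 0 h and 82.7%, 70.5% and 64.3% at 12, 36 and 48 h. For the other 5 families the share at 48 h minus that at 0 h was -4.25 points (Robo2) to -28.2 points (plexins). Median genes per cell were 5304 and 2141 there, and the part of depth in these shares was not tested.

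**Figure D3:**
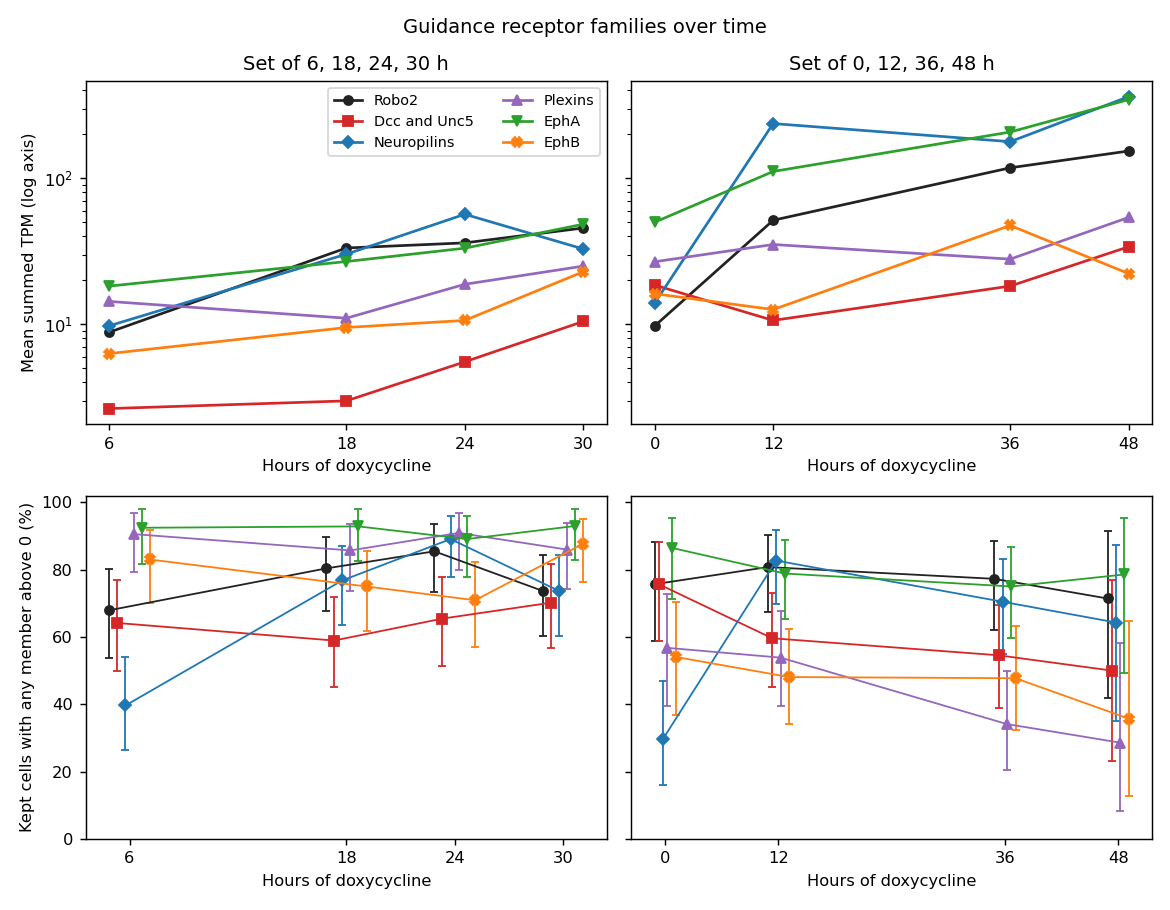
Mean summed level (top, log axis) and percent of kept cells with at least 1 member above 0 (bottom, with exact 95% intervals as bars, points offset sideways) for each of the 6 receptor families, by hours of doxycycline, within the sets 6 to 30 h and 0 to 48 h. The neuropilins stand at 39.6% of cells at 6 h and 73.7% at 30 h, and the EphA family lies at 92.5% and 93.0%.

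Among the ligands, the Slits, which bind Robo receptors, were scarce but higher later. Their summed mean was 1.75 ± 4.30, 5.42 ± 11.1, 12.3 ± 20.7 and 13.1 ± 24.0 TPM at 6, 18, 24 and 30 h, with 35.8, 48.2, 69.1 and 63.2% of cells above 0. Slit3 led this set, with 0.902 TPM at 6 h and 6.84 at 30 h. At 0 h 1 of 37 cells had a Slit, and at 36 h Slit2 had 25.5 TPM from 8 of 44 cells. Slit1 had at most 0.380 TPM. Robo2 and a Slit were above 0 in the same cell in 28.3% of cells at 6 h and 49.1% at 30 h.

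Netrin-1 (Ntn1), the ligand of Dcc and Unc5, was nearly undetected. Its highest mean was 0.916 TPM at 30 h, in 4 of 57 cells, and it was in 0 of 44 cells at 36 h and 0 of 14 at 48 h, which allows up to 6.82 and 21.4%.

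Of the semaphorins, Sema6a, a membrane-bound form that binds plexin-A receptors, made up 53.2 to 80.8% of the sum. Its mean was 6.60 ± 6.70 TPM at 6 h (median 3.91, highest 25.1), 15.9 ± 18.5 at 18 h (11.4, 91.9), 24.1 ± 25.1 at 24 h (19.0, 106) and 24.1 ± 23.8 at 30 h (14.4, 77.0). Its log2 fold change at 30 h was 1.72, or 0.74 over all 96 cells. The 18, 24 and 30 h medians lay above the 6 h mean. At 0, 12, 36 and 48 h the means were 17.8 ± 33.3, 26.6 ± 45.9, 35.3 ± 166 and 89.3 ± 225 TPM (medians 3.20, 5.29, 0 and 0; highest 170, 214, 1099 and 708), and 1 cell held 70.8% of the 36 h sum. Its share of positive cells was 75.7% at 0 h and 28.6% at 48 h.

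Sema6d, a relative, had 0.262 TPM at 6 h and 4.68 at 30 h, above 0 in 7.55 and 26.3% of cells. Sema4d, a ligand of plexin-B1, had 10.3 ± 24.4 TPM at 0 h (median 0, highest 117), 5.93 ± 26.6 at 12 h, 0.432 ± 1.70 at 36 h and 16.3 ± 60.9 at 48 h, the last from 1 cell. Its log2 fold change was -0.71 at 12 h. From 6 to 30 h its mean was 0.550 to 1.11 TPM. The secreted ligands Sema3a, Sema3c and Sema3f, which act through neuropilins, were above 0 in at most 14.3% of cells. Their means did not pass 4.96 TPM.

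Ephrin-A5 (Efna5; chromosome 17, 62604184 to 62881317, minus strand), a ligand of EphA receptors, was the leading ephrin-A gene at all 8 time points. Its mean was 6.22 ± 11.5 TPM at 6 h (median 0.74, highest 55.1), 18.4 ± 22.2 at 18 h (7.33, 82.0), 17.1 ± 19.4 at 24 h (10.0, 81.8) and 20.4 ± 29.0 at 30 h (12.5, 149). Over 0, 12, 36 and 48 h it was 39.2 ± 75.4, 246 ± 848, 577 ± 694 and 353 ± 502 TPM (medians 0, 105, 350 and 94.5; highest 388, 6154, 2858 and 1412). At 12 h 1 cell held 48.2% of the sum, and the mean without it was 130 TPM. The log2 fold change was 1.57 at 30 h versus 6 h, 2.62 at 12 h and 3.14 at 48 h versus 0 h, but -1.91 at 30 h versus 6 h over all 96 cells. Efna5 and its receptor gene Epha7 were above 0 in the same cell in 35.8% of cells at 6 h and 59.6% at 30 h.

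Efna1 had its highest means from few cells, 10.5 TPM at 18 h from 3 of 56 cells and 18.7 TPM at 36 h from 2 of 44. Efna2 had at most 14.4 TPM, at 36 h from 8 of 44 cells. Among ephrin-B ligands, Efnb2, an arterial and neural ligand, had 41.6 ± 61.6 TPM at 0 h (median 9.02, highest 279), 27.6 ± 64.4 at 12 h (0, 348), 33.3 ± 110 at 36 h (0, 531) and 34.6 ± 96.3 at 48 h (0, 362). From 6 to 30 h its mean was 2.71 ± 6.71, 1.58 ± 3.70, 2.07 ± 4.94 and 4.84 ± 10.7 TPM, each with a median of 0 (highest 42.3, 19.4, 29.6 and 70.3). Its log2 fold change was -0.58 at 12 h versus 0 h and its share of cells was 54.1% at 0 h and 30.8% at 12 h. Efnb1 reached at most 13.7 TPM and Efnb3 0.805 TPM.

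The adhesion molecules had the largest summed level of the 12 families, led at all time points except 0 h by Ncam1 (chromosome 9, 49502136 to 49798925, minus strand), the neural cell adhesion molecule. Its mean was 44.6 ± 89.3 TPM at 6 h (median 13.1, highest 547), 115 ± 132 at 18 h (53.0, 485), 150 ± 153 at 24 h (99.5, 698) and 207 ± 226 at 30 h (124, 1019). In the other set it was 23.0 ± 45.0 at 0 h (median 4.06, highest 226), 369 ± 514 at 12 h (250, 3246), 751 ± 902 at 36 h (429, 4542) and 850 ± 1251 at 48 h (262, 3935). Only at 48 h was Ncam1 above 0 in every cell, the lowest having 12.3 TPM. The log2 fold change was 2.19 at 30 h versus 6 h, 3.95 at 12 h and 5.15 at 48 h versus 0 h, and 1.38 at 30 h versus 6 h over all 96 cells.

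Nfasc, neurofascin of axon initial segments and nodes, had 3.48 ± 5.14, 7.78 ± 10.3, 19.4 ± 20.8 and 15.7 ± 17.6 TPM at 6, 18, 24 and 30 h (medians 0.33, 4.28, 10.4 and 10.8; highest 19.8, 54.5, 83.3 and 78.6). Its log2 fold change at 30 h was 1.90, or 0.37 over all 96 cells. Over 0, 12, 36 and 48 h it had 10.3 ± 41.2, 13.0 ± 28.3, 29.8 ± 187 and 13.7 ± 35.3 TPM with medians of 0, and 1 cell held 94.6% of the 36 h sum.

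Contactin-1 (Cntn1), a membrane-anchored axonal protein, had 9.98 ± 11.7, 10.1 ± 12.3, 24.7 ± 23.7 and 27.0 ± 34.1 TPM at 6, 18, 24 and 30 h (medians 5.37, 5.38, 17.2 and 12.4; highest 50.1, 65.2, 104 and 156). At 0, 12, 36 and 48 h it had 23.2 ± 29.1, 23.8 ± 33.4, 63.8 ± 101 and 255 ± 665 TPM (medians 17.5, 11.4, 32.3 and 34.2; highest 175, 147, 414 and 2525). It was above 0 in 91.9% of uninduced cells, and its log2 fold change was 0.03 at 12 h versus 0 h and 1.35 at 30 h versus 6 h (0.21 over all 96 cells). At 48 h 1 cell held 70.8% of the sum, and the mean without it was 80.2 TPM.

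Contactin-2 (Cntn2, also called TAG-1), found on early axons, had 8.78 ± 20.4, 12.2 ± 15.7, 20.2 ± 28.7 and 14.5 ± 27.2 TPM at 6, 18, 24 and 30 h (medians 0.14, 6.39, 7.86 and 4.16; highest 114, 65.2, 128 and 156). It was above 0 in 27 of 53 cells at 6 h and 37 of 57 at 30 h, and its log2 fold change was 0.66 (-0.60 over all 96 cells). At 0 h it was above 0 in 5 of 37 cells, at a mean of 0.182 ± 0.500 TPM, and at 12, 36 and 48 h its mean was 7.93 ± 31.2, 16.1 ± 63.4 and 3.11 ± 8.06 TPM. L1cam, the founding member of its adhesion family, had 0.618 to 1.42 TPM from 6 to 30 h and at most 16.6 TPM in the other set.

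The 14 members with values at every time point are those that passed at 30 h versus 6 h or at 12 h versus 0 h. The mean of the other 30 did not exceed 10.5 TPM from 6 to 30 h (Efna1 at 18 h). It was at most 14.8 TPM at 0 and 12 h (Plxna2), 30.1 at 36 h (Sema6d) and 53.4 at 48 h (Plxna2). At 48 h 15 of the 44 members were at 0 in all 14 kept cells, and at 6 h 1 was. Across the 43 members above 0 at 6 h, the share of cells above 0 had a Spearman rho of 0.93 with the mean TPM 0.44 with the length of the longest coding transcript and 0.13 with the span of the gene, which describes these genes in 1 set of libraries.

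Guidance genes outside the 44 were taken from further lists. At 30 h versus 6 h 1 of 16 other receptors passed (Gfra1, the GDNF co-receptor, log2 fold change 1.45) and 0 of 23 other ligands. In the second set Gfra1 was lower later, with 5.99, 0.034, 0.087 and 0 TPM at 0, 12, 36 and 48 h. Of 11 other adhesion genes 3 passed at 30 h versus 6 h: Cadm1 (listed as Sgigsf) at 2.17, Cadm3 at 1.86 and Nrcam at -0.14. At 12 h versus 0 h their log2 fold changes were 1.77, 2.56 and 2.12, and Nrcam did not pass there. Of 33 genes for signalling inside the growth cone 16 passed at 30 h versus 6 h, with a median of 0.75. Of these 6 were at least 2-fold higher and 1 lower, beside 13.9% and 6.03% of all genes passing. Ablim1, an actin-binding protein, had 1.83 TPM at 6 h and 26.3 at 30 h (3.27). Dpysl5, a collapsin response mediator, had 1.65 and 18.1 TPM (2.84). Rnd2, a small GTPase, had 27.7 and 4.89 TPM (-2.29).

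From 6 to 30 h, Robo2 was higher in cells with more Lhx3. Spearman rho across cells was 0.47, 0.50, 0.42 and 0.57 at 6, 18, 24 and 30 h (n = 53, 56, 55 and 57). At 12 and 36 h it was 0.32 and -0.01 (n = 52 and 44), and at 0 h 1 cell had Lhx3. The cells of a time point share their culture and differ in depth. Robo2 had a rho of 0.11 to 0.32 with the number of genes per cell from 6 to 30 h. At 12 and 36 h Robo2 had a rho of 0.41 and -0.25 with that number, and Lhx3 one of 0.42 and 0.25. From 6 to 30 h Cntn2 had a rho of 0.32 to 0.47 with Lhx3 and Ncam1 one of 0.21 to 0.44. Epha7, in contrast, lay between -0.07 and 0.20, and at 0.08 to 0.54 with the number of genes. Nrp1 and Robo2 had a rho of 0.37 to 0.51 with each other from 6 to 30 h and of -0.15 and 0.20 at 12 and 36 h, and both were above 0 in 32.1% of cells at 6 h and 61.4% at 30 h. With the pluripotency gene Pou5f1, Robo2 had a rho of 0.07, -0.15, -0.26 and -0.48 at 6, 18, 24 and 30 h.

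**Figure D4:**
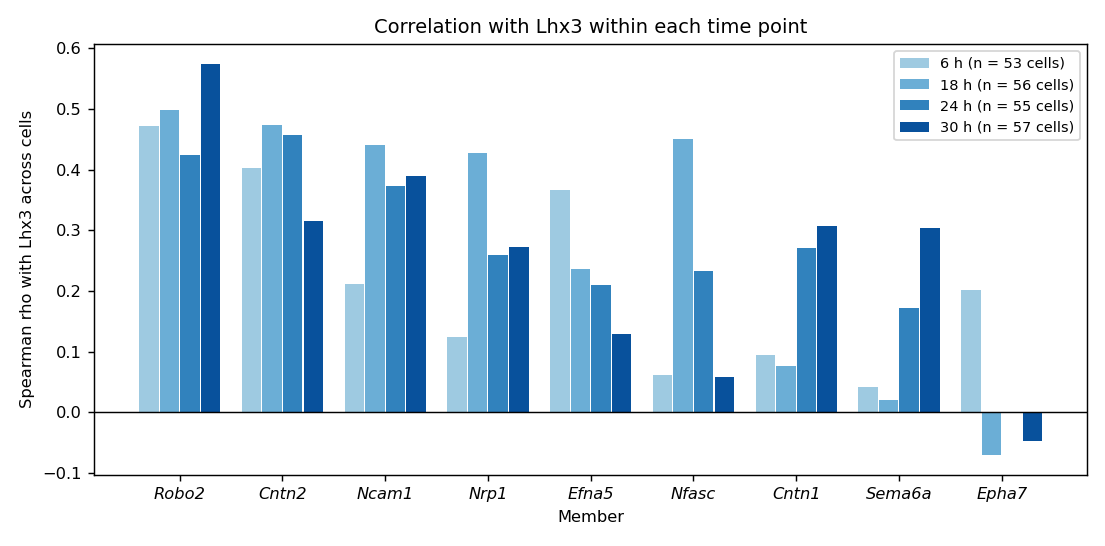
Spearman rho across kept cells between Lhx3 and each of 9 members that passed at 30 h versus 6 h, at 6, 18, 24 and 30 h (bars, darker with time; 53, 56, 55 and 57 cells). Robo2 lies at 0.42 to 0.57 at the 4 time points and Epha7 at -0.07 to 0.20.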

How the data were processed

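The authors deposited TPM for each gene in a table of 768 cells (8 time points of 96 cells). Per the submitters' processing notes, bcl2fastq, Picard and mm10 were used. For the aligner and annotation, nothing is given in the sources used here. The columns sum to 1000000, so TPM keeps no depth, reads per value are unknown and only genes above 0 per cell measure depth. Each column was mapped to 1 sample by its name. No 2 columns were identical (0 pairs).

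Kept cells (368) had at least 2000 genes above 0, and 400 were left out. For each gene and time point the mean, SD, median and share above 0 were computed, with exact Clopper-Pearson 95% intervals, and for a share of 0 the limit of 3 cells. Cells are not replicates, so no p-value was made. Members named with all values passed the filter (10 TPM and 25% of cells) at 30 h against 6 h or at 12 h against 0 h; the rest are given by range, and of each other list up to 3 passing genes with the largest fold change. The members and lists were chosen with earlier results of these data known. Of the list genes 146 matched by symbol, 4 by synonym and 2 (Robo1 and Pak1) were not matched. Gene positions are from GENCODE M21 and promoter windows from RefSeq. A planned comparison of protein sequences was not made. The folds were tested on simulated data.

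Alternatives were pseudocounts of 0.1 and 10 TPM, rescaled means, means of log2 values, all cells, cells with at least 1000 or 4000 genes, means without the highest cell, other filters, and detection at 10 TPM or among the 2000 highest genes of a cell. Correlations across cells and counts of gene pairs in the same cell were planned for 30 h only. The correlations at all other time points were added after seeing the data, and the pair counts there were not in the plan. The software was scipy 1.17.1, pandas 2.3.3, matplotlib 3.10.9 and numpy 2.4.6 under Python 3.11.15.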

Additional observations from a re-analysis of the deposited data

Results flagged for a closer look

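Cells left out for having fewer than 2000 genes above 0 still held member transcripts, and at 36 and 48 h more often than the uninduced left-out cells. Among 82 left-out cells at 48 h, Robo2 was above 0 in 32.9%, beside 10.2% of 59 left-out cells at 0 h. A neuropilin was above 0 in 29.3% beside 1.69%, an EphA receptor in 43.9% beside 3.39%, an ephrin-A ligand in 56.1% beside 8.47%, and an adhesion molecule in 73.2% beside 25.4%. Among 52 left-out cells at 36 h, an EphA receptor was above 0 in 25.0% and an ephrin-A ligand in 30.8%. The left-out cells had a median of 366 genes above 0 at 0 h, 393 at 36 h and 1044.5 at 48 h, and the part of this difference in the shares was not tested.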

How the results depend on the processing

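No paired analysis was possible because each time point is 1 sample, equal cell numbers only number wells, and the results come from no test. TPM gives no read depth, and 14 kept cells at 48 h limit each value there. A value counts as moved when it differs by over 1.5 times. Of 225 recomputed main results 159 did not move and 66 did. Most recomputed shares of cells moved, with 124 that did and 56 that did not. Among recomputed values of single members 227 did not move, 91 moved and 4 reversed in sign. The cause was not tested. Cells with at least 4000 genes gave no value at 36 and 48 h.

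At 30 h against 6 h 8 members were at least 2-fold higher as reported. With a pseudocount of 10 TPM 5 of 9 passing members were, beside 4.94% of all genes passing. With all cells 3 of 9 were higher and 1 lower, beside 18.3% and 17.1%. Without a filter 20 of 44 were higher, beside 12.5% of genes above 0 at either time point. With a filter at 1 TPM and 10% of cells 19 of 32 were, beside 16.1%. At 12 h against 0 h (5 reported) 10 of 40 were higher without a filter, beside 22.0%. With the filter at 1 TPM 8 of 24 were, beside 20.0%. The 2 lower members became 0 with a pseudocount of 10 TPM, all cells, at least 1000 genes or without the highest cell. They became 1 with means of log2 values or at least 4000 genes. Under these settings 7.28 to 24.9% of all genes passing were lower. At 48 h against 0 h (9 reported) 19 of 38 were higher and 6 lower without a filter, beside 23.6% and 36.5%. With the filter at 1 TPM 17 of 25 were higher and 4 lower, beside 25.0% and 45.0%. The 1 lower member became 0 with all cells or at least 1000 genes, beside 35.1% and 37.8% of all genes passing.

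The median log2 fold change of members at 30 h against 6 h (1.72) was 1.04 with a pseudocount of 10 TPM, 0.74 with all cells and 0.86 without a filter. At 12 h (0.55) it was 1.81 with all cells and 1.27 without the highest cell. At 48 h (2.35) it was 0.94 with means of log2 values, 3.30 with all cells, 3.57 with at least 1000 genes, 1.09 without a filter, 3.16 without the highest cell and 2.97 rescaled.

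For family sums at 30 h against 6 h, a pseudocount of 10 TPM gave 1.56 for Robo2, 0.69 for Dcc and Unc5 and 1.01 for EphB; means of log2 values gave 1.61 for Robo2 and 2.24 for neuropilins; all cells gave 0.82 for Robo2, 0.92 for Dcc and Unc5 and 0.27 for neuropilins; at least 1000 genes gave 0.98 for Dcc and Unc5. At 12 h against 0 h, Robo2 was 1.64 with a pseudocount of 10 TPM, 1.59 with means of log2 values and 1.40 with all cells. Neuropilins were 3.37 with a pseudocount of 10 TPM, 4.99 with all cells, 3.14 with at least 4000 genes and 4.63 without the highest cell, where EphB was 0.34.

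At 48 h against 0 h, Robo2 was 3.06 with a pseudocount of 10 TPM, 2.52 with means of log2 values, 2.34 with all cells and 4.47 rescaled. Neuropilins were 3.96 with a pseudocount of 10 TPM, 4.01 with all cells and 5.23 rescaled. Dcc and Unc5 were 0.072 with means of log2 values, 1.52 with all cells, 0.22 without the highest cell and 1.46 rescaled. Plexins were -0.67 with means of log2 values, 1.61 with all cells, 1.94 with at least 1000 genes, -0.29 without the highest cell and 1.60 rescaled. EphA was 1.98 with all cells and 3.39 rescaled, and EphB 1.05 rescaled. Of single members, Efna5 turned to -1.91 at 30 h against 6 h, Cntn2 to -1.19 at 12 h and -1.97 at 48 h against 0 h with all cells, and Sema6a to -0.74 at 48 h with means of log2 values.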
